A study of Mus musculus with 3 samples.

Results

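A set of 9 genes of thyroid hormone action was followed in open chromatin of mouse oligodendrocyte progenitor cells: the hormone receptors Thra and Thrb, their dimer partners Rxra, Rxrb and Rxrg, the deiodinases Dio2 and Dio3, and the hormone-responsive genes Klf9 and Hr. These are 9 of 21883 protein-coding genes. Every peak touching one of their bodies or the 20000 bp on either side was taken, which gave 116 of the 182865 sites of the series. A site is 1 peak, or several overlapping peaks of different libraries merged. The assay was ATAC-seq, in which a transposase cuts and tags accessible DNA.

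There were 3 libraries and 1 per group, each from 50000 cells, so no difference has a replicate check and no test between conditions was possible. All cells were progenitors immunopanned from the cortices of C57BL/6 pups at postnatal day 4 to 7 with antibodies to GalC and O4, and all had been grown with PDGF-AA, CNTF, bFGF and NT3. The progenitor library (day 0) and the control day 1 library came from cells labelled wild type. The third came from Seh1cKO cells at day 1, with a conditional knockout of Seh1, a protein of the nuclear pore complex. Both day 1 groups had received triiodothyronine (T3) at 60 nM while PDGF-AA, bFGF and NT3 were withdrawn, so the hormone and the loss of growth factors cannot be told apart. For the Seh1 knockout, neither driver nor deleted part is stated in the labels, a peak table does not show whether the protein was lost, and Seh1cKO cells at day 0 were not analysed here.

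Thyroid hormone enters cells through membrane transporters. Type 2 deiodinase (Dio2) turns the prohormone T4 into active T3, and type 3 deiodinase (Dio3) inactivates both. T3 binds nuclear receptors encoded by Thra and Thrb, which sit on DNA as dimers with retinoid X receptors (RXR), encoded by Rxra, Rxrb and Rxrg. Without hormone these dimers recruit corepressor complexes, and with hormone they recruit coactivators. A typical response element is a direct repeat of the hexamer AGGTCA with 4 bases between. Klf9, a Krüppel-like transcription factor, and Hr, the corepressor hairless, are classical T3-responsive genes of the brain. In oligodendrocyte progenitors T3 promotes exit from the cell cycle and differentiation.

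The depths were unequal, with 23403600 fragments at day 0, 18260883 in control day 1 and 10845533 in Seh1cKO cells, or 59.4% of control day 1. Levels are therefore given as pileup, the fragments stacked at a peak's summit, per 1000000 fragments of the library (FPM). The 95% intervals of folds and shares cover counting error only, and duplicates had been kept. A site with no call can still be open below the level a library could call, and fewer open cells cannot be told apart from less opening per cell. Across all sites shared by 2 libraries the median level in control day 1 was 1.34 times that at day 0, and in Seh1cKO cells 0.908 times that in control day 1. Markers were read at the start, or at either annotated end where no start was known, as for Olig1 and Sox10. Of 7 oligodendrocyte lineage markers, 6, 5 and 5 had such a peak in day 0, control day 1 and Seh1cKO cells, with summed levels of 19.7, 17.2 and 15.1 FPM. Cspg4 had none, Pdgfra had none in control day 1 and Nkx2-2 had none in Seh1cKO cells. Astrocyte markers gave 2, 3 and 3 of 5, neuronal markers 3, 3 and 4 of 5, microglial markers 2, 2 and 1 of 5, and endothelial and mural markers 2, 3 and 2 of 5. Their summed levels ran from 1.71 to 4.15 for astrocytes, 7.27 to 8.96 for neurons, 1.84 to 4.38 for microglia and 2.57 to 3.72 for vessels, and Aqp4, Gjb6, Rbfox3, Cx3cr1, Csf1r, Aif1, Cldn5 and Pecam1 had no peak in any library. In control day 1 the highest of these other markers were P2ry12 of microglia and Syt1 of neurons. P2ry12 stood at 1.84, 3.56 and 1.84 FPM in day 0, control day 1 and Seh1cKO cells, and Syt1 at 3.72, 3.34 and 4.06. The part of other cells in the values that follow was not tested.

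Of the 116 sites, 73 (62.9%) were called at day 0, 82 (70.7%) in control day 1 and 43 (37.1%) in Seh1cKO cells, against 58.1%, 63.5% and 24.2% of all sites of the series. The plot of sites by gene and library shows that 34 (29.3%) were called in all 3 libraries, against 17.9% of all sites. At day 0 alone 30 (25.9%) were called, in control day 1 alone 35 (30.2%) and in Seh1cKO cells alone 3 (2.59%), against 32.1%, 36.9% and 3.14% of all sites. Thrb, with a body of 380873 bp, held 35 sites, followed by Thra with 17, Rxra with 15, Hr with 12, Klf9 and Rxrg with 11 each, Rxrb with 9 and Dio2 with 6. Dio3 had no site in any library. Within 1000 bp of an annotated end of any gene, 18 of 33 sites (54.5%) were called in all 3 libraries, and farther away 16 of 83 (19.3%). The same split over all sites gave 46.0% and 12.7%, within the intervals of the first share (36.4 to 71.9) and of the second (11.4 to 29.4).

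**Figure D1:**
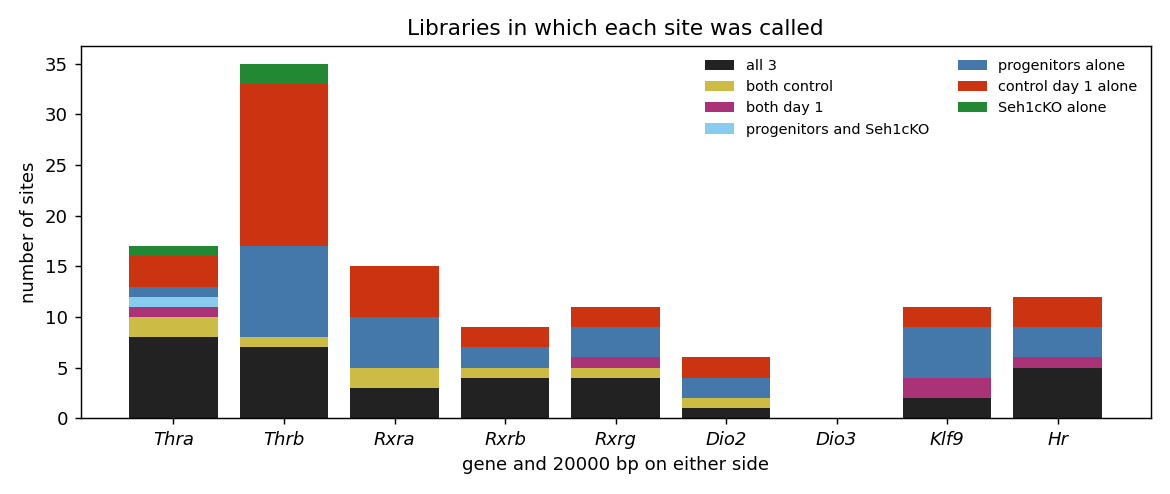
Number of sites at each gene (body and 20000 bp on either side), split by the libraries in which they were called; each bar stacks sites called in all 3 libraries, in pairs and in 1 library. Thrb held 35 of the 116 sites and Dio3 none.

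Of 82 control day 1 sites, 40 (48.8%) had no peak at day 0, against 61.1% of all control day 1 sites, and 43 (52.4%) had none in Seh1cKO cells, against 68.9%. The other 42 were also called at day 0 (51.2%, exact Clopper-Pearson interval 39.9 to 62.4), where sites of the same strength in the whole series gave 51.6%. The same share in Seh1cKO cells was 47.6% (36.4 to 58.9), against 43.0% at matched strength. Both shares were close to those of equally strong sites elsewhere. In the other direction, 31 of 73 day 0 sites (42.5%) had no peak in control day 1 and 38 (52.1%) none in Seh1cKO cells, against 57.4% and 67.0% of all day 0 sites. Of 43 Seh1cKO sites, 4 (9.30%) had no peak in control day 1 and 8 (18.6%) none at day 0, against 18.2% and 20.7% of all Seh1cKO sites. Of the 43 control day 1 sites without a Seh1cKO call, 25 would have reached the local call limit at the Seh1cKO depth had the level in FPM been kept. The remaining 18 would have fallen under that limit, which was estimated from the nearest Seh1cKO peak. The lowest pileup called in that library was 6, so some of the 18 may still have been callable. The uncalled sites were weak, with a median of 13.0 fragments in control day 1, while sites in all 3 libraries had a median of 51.0.

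Only 5 sites were absent at day 0 and called in both day 1 libraries: 2 at Klf9 and 1 each at Hr, Thra and Rxrg. Sites with this pattern made up 4.31% of the 116 and 1.87% of all sites of the series. Of the 34 control day 1 sites with −log10 q of at least 10, the authors' score of a peak's confidence, 4 (11.8%) lacked a call at day 0, against 11.6% of all control day 1 sites of that strength. These were the pair at Klf9, the Hr site and the Thra site. Another 4 (11.8%) lacked a call in Seh1cKO cells, against 20.0% of all such sites, and these lay at Thra (2), Thrb and Rxra.

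Among 42 sites shared by day 0 and control day 1, 18 (42.9%) were higher at day 1 by at least 1.5-fold and 0 were lower, against 37.7% and 3.75% of all shared sites. Relative to the median shift of all sites, 9 (21.4%) were higher and 2 (4.76%) lower, against 14.3% and 14.5% of all sites. Among 39 sites shared by both day 1 libraries, 2 were higher in Seh1cKO cells and 11 (28.2%) lower, against 8.92% and 23.8% of all shared sites. Relative to the median these were 2 (5.13%) and 7 (17.9%), against 13.9% and 18.3% of all. Compared with day 0, 12 of 35 sites shared with Seh1cKO cells (34.3%) were higher there and 0 lower, against 26.5% and 7.12% of all shared sites. Relative to the median, 9 (25.7%) were higher and 4 (11.4%) lower, against 11.5% and 15.5% of all. The median log2 fold was 0.51 from day 0 to control day 1 (0.42 over all shared sites) and -0.29 from control day 1 to Seh1cKO (-0.14 over all). In the histograms of all shared sites most of these sites fall within the bulk, and a few of Thrb, Klf9 and Rxrg lie in the tails. By median fold the genes lay near the background, while some shares past 1.5-fold differed from it, which was not tested. The values below belong to single sites.

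**Figure D2:**
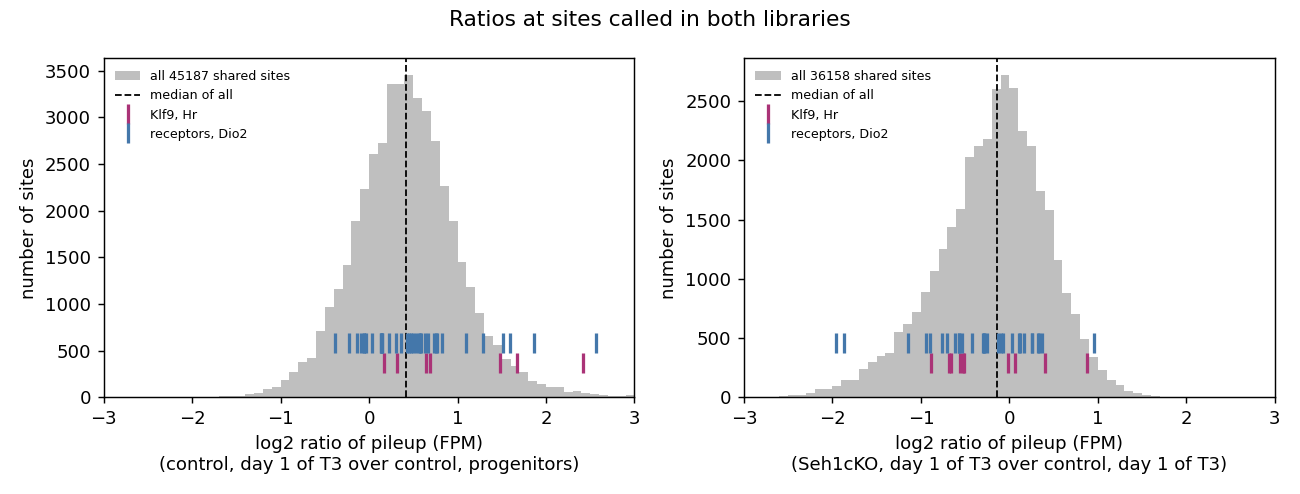
Grey histograms give the log2 ratio of pileup in FPM at all shared sites (number of sites on the vertical axis) for control day 1 over day 0, left, and Seh1cKO over control day 1, right, with a dashed line at the median of all. Coloured ticks mark the sites of Klf9 and Hr and those of the receptor genes and Dio2, at heights without meaning; they run from -0.38 to 2.56 on the left and from -1.96 to 0.96 on the right.

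Start regions were compared first, because the promoter is the part of a gene most often open. Sequence of the 250 bases before the annotated start was taken from RefSeq (GRCm38.p6) for 7 of the 9 genes, with 11 starts in all. The hexamer AGGTCA, on either strand, occurred in 3 of the 11 windows (27.3%), against 14.0% of 32851 promoters searched over the same length. Its direct repeat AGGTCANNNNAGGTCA, which contains the hexamer, occurred in 0 of 11 and in 5 of the 32851. Of the 3 windows with the hexamer, that of the second Rxra start, which holds it at 2 places, overlapped no peak in any library. Neither did the windows of the second Thrb start, the first Rxra start and the Dio3 start, which lack the hexamer. The 5 windows printed here, 5′ to 3′ on the gene's strand with the hexamer in capitals, show the constantly open CpG-rich start of Klf9, 2 receptor starts that hold the hexamer, and both deiodinase starts.
Klf9 (chr19:23140976-23141225, plus strand): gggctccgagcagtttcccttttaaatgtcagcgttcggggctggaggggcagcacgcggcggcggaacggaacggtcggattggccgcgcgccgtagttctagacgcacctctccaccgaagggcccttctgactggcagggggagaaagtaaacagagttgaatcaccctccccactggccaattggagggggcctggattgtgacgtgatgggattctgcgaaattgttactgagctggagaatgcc
Thrb, first start (chr14:17660710-17660959, plus strand): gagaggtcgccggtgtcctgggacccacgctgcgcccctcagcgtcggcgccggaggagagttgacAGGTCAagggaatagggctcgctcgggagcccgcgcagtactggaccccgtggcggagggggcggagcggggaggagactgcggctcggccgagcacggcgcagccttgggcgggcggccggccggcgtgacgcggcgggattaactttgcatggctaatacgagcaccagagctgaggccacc
Rxrg, second start (chr1:167618015-167618264, plus strand): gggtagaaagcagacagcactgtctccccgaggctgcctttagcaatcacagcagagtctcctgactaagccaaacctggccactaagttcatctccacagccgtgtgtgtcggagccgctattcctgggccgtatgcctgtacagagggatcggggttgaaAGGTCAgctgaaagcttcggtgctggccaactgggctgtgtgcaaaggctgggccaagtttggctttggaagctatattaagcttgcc
Dio2 (chr12:90739039-90739288, minus strand): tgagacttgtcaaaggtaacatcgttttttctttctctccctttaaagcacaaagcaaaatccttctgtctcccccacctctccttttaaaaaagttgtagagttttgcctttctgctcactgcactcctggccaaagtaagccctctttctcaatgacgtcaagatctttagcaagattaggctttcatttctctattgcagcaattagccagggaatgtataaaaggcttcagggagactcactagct
Dio3 (chr12:110278980-110279229, plus strand): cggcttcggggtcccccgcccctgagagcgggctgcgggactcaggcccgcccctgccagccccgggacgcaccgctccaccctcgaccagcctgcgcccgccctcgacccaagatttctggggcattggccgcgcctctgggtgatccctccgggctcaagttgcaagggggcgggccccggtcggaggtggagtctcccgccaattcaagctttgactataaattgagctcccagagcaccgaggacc

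The start of Klf9 was the highest of the 9 genes in all 3 libraries, at day 0 by 1 fragment over Rxrb. Its site, chr19:23140576-23141555, stood at 3.67 FPM at day 0, 5.91 in control day 1 and 6.18 in Seh1cKO cells (86, 108 and 67 fragments). The window printed for it has a GC content of 59.6% and 18 CpG dinucleotides, where the median promoter has 52.4% and 6. The level in control day 1 was 1.61 times that at day 0 (1.20 to 2.16), and Seh1cKO cells were at 1.04 times control day 1 (0.758 to 1.43). Relative to the median shift of all sites the first fold was 1.20, and in fold enrichment over local background it had the opposite sign (log2 -0.17). The genes whose starts were most like it over the 3 libraries, among 9935 genes with a start called in all 3, were Dolpp1, Cip2a and Dzip3, each at a distance of 0.03 on the log2 scale, and Cip2a and Dzip3 had the same values. The same search for Thra was not made, because its strongest end site had no call in Seh1cKO cells.

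Rxrb had the next highest start. Its site, chr17:34031184-34032371, shared with the start of the zinc transporter gene Slc39a7, stood at 3.63, 4.22 and 5.26 FPM at day 0, control day 1 and Seh1cKO. Folds were 1.16 for control day 1 over day 0 (0.842 to 1.60) and 1.25 for Seh1cKO over control day 1, and the first becomes -0.27 on the log2 scale when libraries are scaled by sites called in all 3. At the first Thrb start, chr14:17660466-17661454, which overlaps a window of 71.6% GC with the hexamer, levels were 2.48, 3.72 and 3.04. Seh1cKO cells were at 0.817 times control day 1 there, so neither start differed by 1.5-fold between the day 1 libraries.

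The starts of Dio2, Rxrg and Rxra were weak, and the end sites of Thra and Hr are described with those genes. The Dio2 site, chr12:90738604-90739221, held 20, 22 and 8 fragments (0.85, 1.20 and 0.74 FPM), and its window is poor in CpG, with 41.6% GC and 2 CpG dinucleotides. The first Rxrg start held 24, 17 and 11 fragments. The second Rxrg start, whose window holds the hexamer, had no peak at day 0, 15 fragments in control day 1 and 6 in Seh1cKO cells, the lowest pileup called in that library. Within 1000 bp of the first Rxra start, but outside its sequence window, 1 site had 15 and 16 fragments at day 0 and control day 1. It had no Seh1cKO call, against a call limit of 7. A second site, also outside the window, had 13 in control day 1 alone. Dio3 had no call although its window has 69.6% GC and 21 CpG dinucleotides. The plot of start levels shows this order. Among all called starts in control day 1 the Klf9 start ranked at percentile 87.4, Rxrb at 73.7, Thrb at 67.7, Dio2 at 18.2, Rxrg at 12.2 and Rxra at 10.9. Of the 9 genes, 8, 8 and 7 had a start site, where 62.4%, 63.1% and 58.6% of 17491 genes had one.

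**Figure D3:**
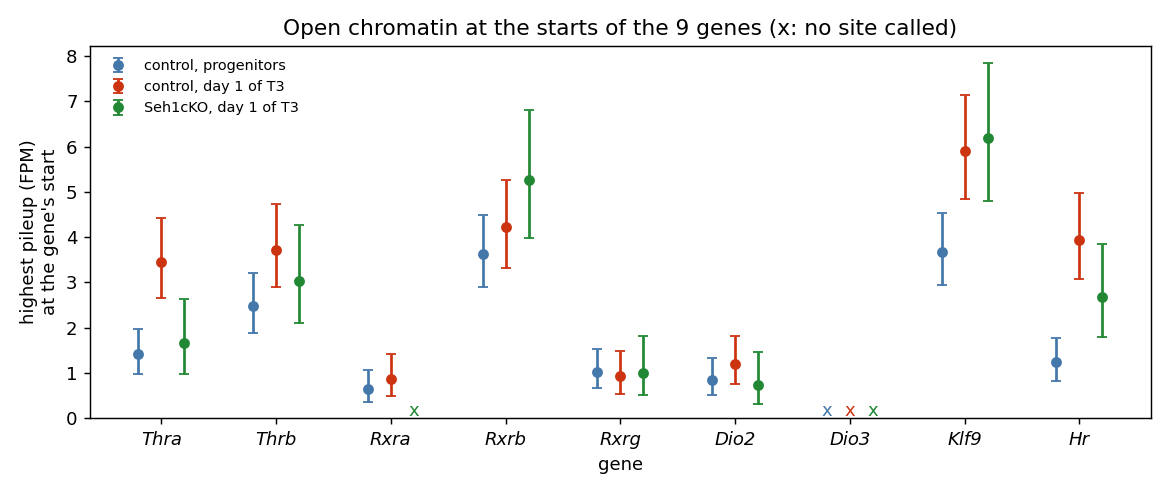
Level of the highest site at each gene's start (within 1000 bp; either annotated end for Thra and Hr) in FPM for the 3 libraries; error bars are exact 95% Poisson intervals and x marks a start with no call. Klf9 is highest in each library, Dio3 has no call, and the Seh1cKO value of Thra comes from a second site inside the gene.

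Of the 4 strong control day 1 sites absent at day 0, 3 lay in the windows of response genes. Such sites made up 11.8% of the strong control day 1 sites here and 11.6% of those of the series. The Klf9 sites among them lay within 1000 bp of an annotated end of another gene, 23135480 at 2410080I02Rik and 23149849 at Mir1192. Upstream of Klf9 at chr19:23134520-23135424, 6310 bp before the start and 22 bp from the annotated start of the long noncoding RNA gene 2410080I02Rik, the pileup was 18 fragments at day 0, 75 in control day 1 and 31 in Seh1cKO cells, or 0.77, 4.11 and 2.86 FPM. Control day 1 was 5.34 times day 0 (3.16 to 9.49), a fold reached by 0.288% of all shared sites, but in fold enrichment over local background the log2 difference was 0.90 in place of 2.42. Seh1cKO cells were at 0.696 times control day 1 (0.443 to 1.07) and 3.72 times day 0 (2.02 to 7.06), and 0.0514% of all shared sites were as high in the latter comparison. The day 0 peak covered 186 bp with a summit 306 bp from the control day 1 summit, while the peaks of control day 1 and Seh1cKO cells covered 784 and 716 bp. The neighbouring site, chr19:23135480-23136192, had no peak at day 0, where the call limit was 13 fragments (0.555 FPM), against 70 fragments in control day 1 and 26 in Seh1cKO cells (3.83 and 2.40 FPM). Seh1cKO cells were at 0.625 times control day 1 there (0.383 to 0.994), an interval that ends just under equal levels. In the plot of response genes both appear as tall bars before the start in the day 1 libraries, with a low bar or none at day 0.

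Inside Klf9 at chr19:23149849-23150193, near the microRNA gene Mir1192, another site had no peak at day 0, 31 fragments in control day 1 and 10 in Seh1cKO cells, with a Seh1cKO to control day 1 ratio of 0.543 (0.238 to 1.14). Of the other 7 Klf9 sites apart from the main start site, none was called in Seh1cKO cells. Those at 23141766 (25 fragments, day 0 alone) and 23142070 (31 fragments, control day 1 alone) lay within 1000 bp of the start. All 7 were weak, with 9 to 31 fragments.

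Hr showed the same order of libraries around its lower annotated end. The flanking site chr14:70551762-70552615, 1970 bp before that end, had no peak at day 0, 72 fragments in control day 1 and 27 in Seh1cKO cells (3.94 and 2.49 FPM). The day 0 call limit there was 14 fragments (0.598 FPM), and the control day 1 level would have given 92.3 fragments at that depth. Seh1cKO cells were at 0.631 times control day 1 (0.390 to 0.995). At the end itself, chr14:70554197-70554636, pileups were 29, 72 and 29 fragments, or 1.24, 3.94 and 2.67 FPM. Control day 1 was 3.18 times day 0 (2.04 to 5.08; log2 1.67, or 0.42 in fold enrichment), and Seh1cKO cells were at 0.678 times control day 1 (0.425 to 1.06) and 2.16 times day 0 (1.24 to 3.74). The strand of Hr was not used here, so it is not said whether this end is the start.

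Sites near other genes in the Hr window varied. The site at Reep4, chr14:70545139-70545547, was 1 of 2 sites higher by 1.5-fold in Seh1cKO cells than in control day 1, with 1.37, 1.70 and 3.13 FPM and a Seh1cKO to control day 1 ratio of 1.85 (1.10 to 3.11). The site at Nudt18, the highest of the window at day 0, held 90, 79 and 62 fragments. At Fam160b2, 10520 bp beyond the other end of Hr, levels were 0.94, 2.63 and 1.84, and control day 1 was 2.80 times day 0 (1.66 to 4.86; log2 1.48, or 0.87 in fold enrichment).

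**Figure D4:**
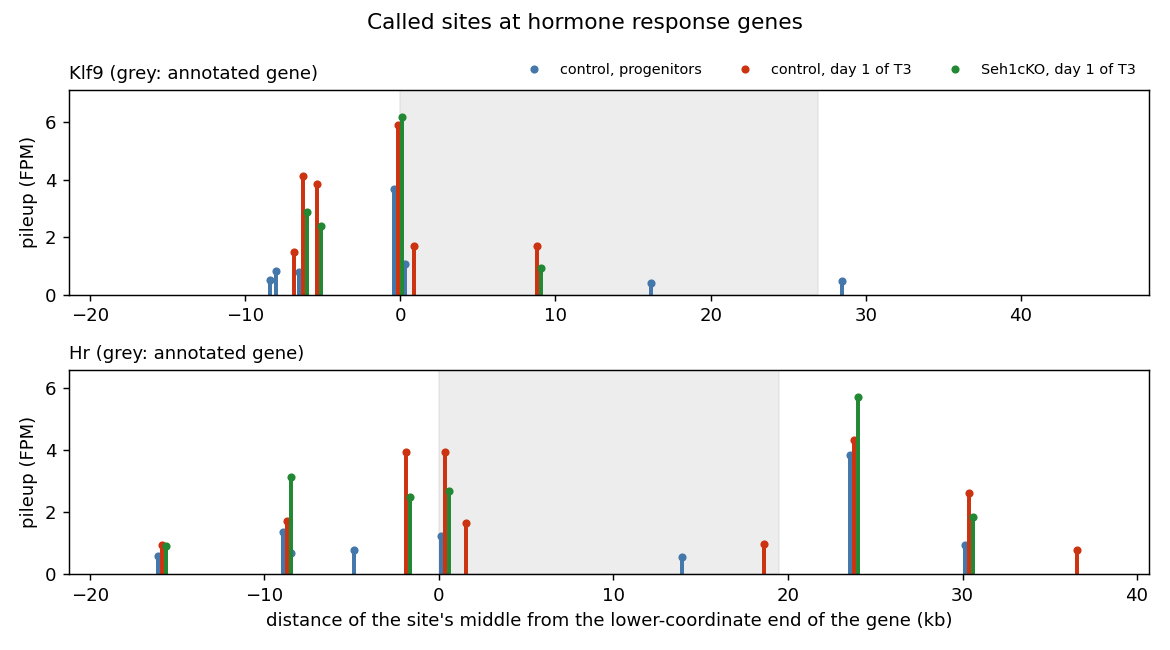
Each bar is a called site at Klf9 or Hr, at the distance in kb of its middle from the gene's lower-coordinate end (the start of Klf9), with its height in FPM; the 3 libraries are set slightly apart and grey marks the annotated gene. The upstream Klf9 sites at 3.83 and 4.11 in control day 1 and the Hr sites at 3.94 are called in Seh1cKO cells at 2.40 to 2.86 and are absent or at most 1.24 at day 0.

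Thrb, Rxrg and Thra carried large differences away from their starts or annotated ends, as single tall control day 1 bars in the plot of receptor genes. The lower annotated end of Thra, with 63 fragments in control day 1 and no Seh1cKO call, also differed and is described with that gene. In the body of Thrb, 266809 bp from its first start, the site chr14:17927457-17928088 held 20 fragments at day 0, 92 in control day 1 and 15 in Seh1cKO cells, or 0.85, 5.04 and 1.38 FPM. Control day 1 stood alone, at 5.90 times day 0 (3.61 to 10.1), a fold reached by 0.168% of shared sites (log2 2.56, or 1.54 in fold enrichment). Seh1cKO cells were at 0.275 times control day 1 (0.148 to 0.477), with 0.982% of shared sites as low (log2 -1.87, or -1.24 in fold enrichment), and at 1.62 times day 0 (0.771 to 3.33). In the same body at chr14:17916975-17917726 levels were 0.98, 2.96 and 1.94, so that Seh1cKO cells lay between the controls, and the log2 difference of the controls was 1.59, or 0.89 in fold enrichment. The site at 17731072 held 49, 36 and 16 fragments, with folds of 0.942 for control day 1 over day 0 and 0.748 for Seh1cKO over control day 1. The site at 17967284 had 12, 13 and 15 fragments, the highest Seh1cKO to control day 1 ratio of the shared sites (1.94, 0.862 to 4.44). The site at 17816141 had 15 and 25 fragments in the controls and no call in Seh1cKO cells, where 14.8 would have been reached at an unchanged level and the limit was 6.

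Most Thrb sites were faint, and 16 of 35 were called in control day 1 alone, with 8 to 19 fragments each, and 9 at day 0 alone, where 36.9% and 32.1% of all sites had these patterns. Without Thrb the shares of control day 1 sites found at day 0 and in Seh1cKO cells were 58.6% and 55.2%.

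Rxrg, a receptor gene expressed in fewer tissues than Rxra and Rxrb, also stood highest in control day 1 at an upstream site. At chr1:167589023-167589738, 8926 bp before its first start, pileups were 37, 105 and 16 fragments, or 1.58, 5.75 and 1.48 FPM. Control day 1 was 3.64 times day 0 (2.48 to 5.44), a log2 difference of 1.86 that was 0.49 in fold enrichment. Seh1cKO cells were at 0.257 times control day 1 (0.141 to 0.436), the lowest ratio of the 39 shared sites (log2 -1.96, or -0.80 in fold enrichment), and at 0.933 times day 0 (0.485 to 1.72). The day 0 and control day 1 summits lay 2 bp apart. The other Rxrg sites called in all 3 libraries differed little, with folds of 0.854 to 1.23 for control day 1 over day 0.

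Thra, the receptor gene generally most expressed in brain, also gave such a site in its body. At chr11:98750455-98751351, 10181 bp from the lower annotated end, pileups were 50, 111 and 30 fragments, or 2.14, 6.08 and 2.77 FPM. Control day 1 was 2.85 times day 0 (2.02 to 4.06; log2 1.51, or 0.70 in fold enrichment), and Seh1cKO cells were at 0.455 times control day 1 (0.293 to 0.686) and 1.29 times day 0 (0.795 to 2.08). At the lower end itself, chr11:98740085-98740685, there were 33 fragments at day 0, 63 in control day 1 and no call in Seh1cKO cells. Control day 1 was 2.45 times day 0 (1.58 to 3.85; log2 1.29, or 0.53 in fold enrichment), with summits 423 bp apart. An unchanged level would have given 37.4 fragments in Seh1cKO cells, against a call limit of 10 (0.922 FPM). A second site inside this end was called in all 3 libraries with 21, 28 and 18 fragments, and its log2 difference of 0.77 between the controls was 0.05 in fold enrichment.

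Toward its other end the Thra window reaches Nr1d1, a gene for a circadian nuclear receptor encoded on the opposite strand. The site at the Nr1d1 start held 55, 64 and 49 fragments, with Seh1cKO cells at 1.92 times day 0. The adjacent site at 98773771 held 88, 101 and 55 fragments, with control day 1 at 1.47 times day 0 and Seh1cKO cells at 0.917 times control day 1. A site near Gm31862 at 98783316 held 50 and 43 fragments in the controls and had no call in Seh1cKO cells, where the limit was 15 and an unchanged level would have given 25.5. The distal site at 98721478 had no peak at day 0, 22 fragments in control day 1 and 7 in Seh1cKO cells.

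**Figure D5:**
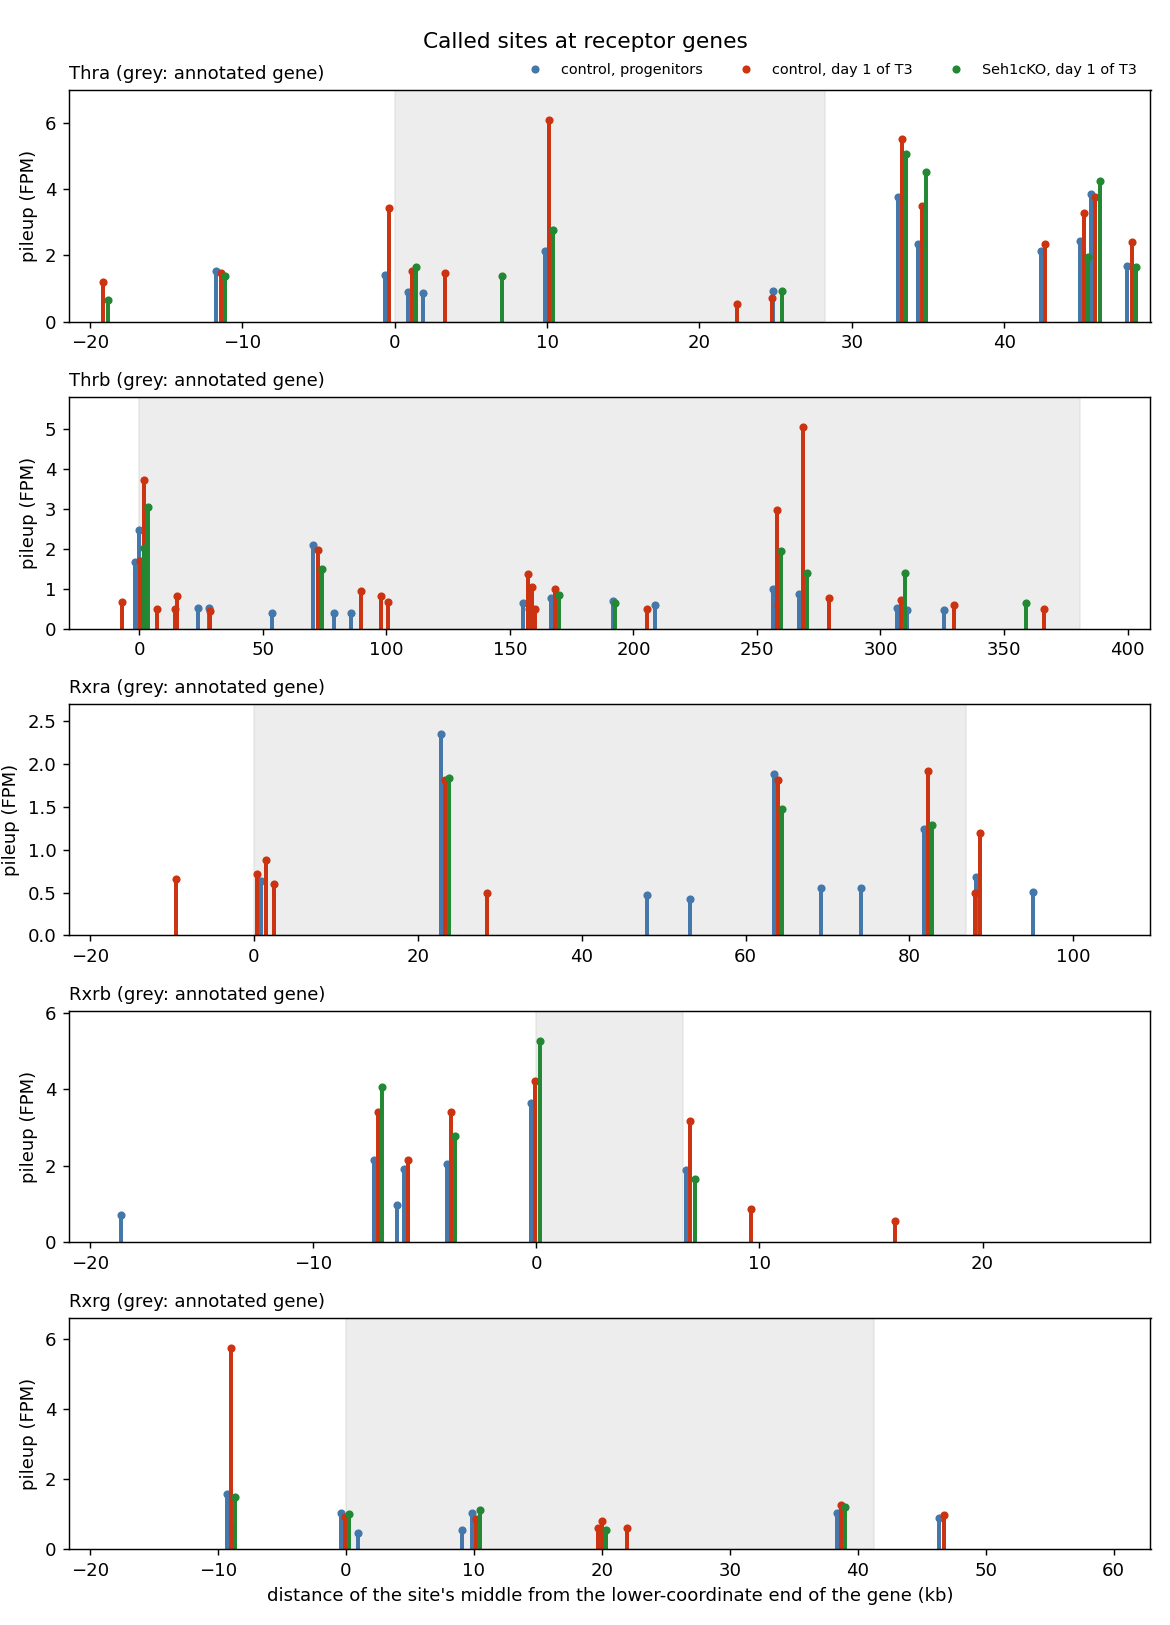
Each bar is a called site at a receptor gene, at the distance in kb of its middle from the gene's lower-coordinate end, with its height in FPM; the 3 libraries are set slightly apart, grey marks the annotated gene, and vertical scales differ between genes. The Thrb body site, the Rxrg upstream site and the Thra body site reach 5.04, 5.75 and 6.08 in control day 1 and lie at 1.38, 1.48 and 2.77 in Seh1cKO cells.

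Rxra and Rxrb differed less. The highest Rxra sites lay in its body. The site at 27699443 held 55, 33 and 20 fragments, with control day 1 at 0.769 times day 0, and the sites at 27740108 and 27758474 held 44, 33 and 16 and 29, 35 and 14. In the Rxra flank the site at 27764870 held 16 and 22 fragments in the controls and had no call in Seh1cKO cells, against a limit of 7 and 13.1 at an unchanged level. In the Rxrb window the site chr17:34024321-34025127 lies at an annotated end of Ring1 and stood at 2.14, 3.40 and 4.06 FPM. Control day 1 was 1.59 times day 0, and Seh1cKO cells were at 1.19 times control day 1 and 1.90 times day 0. Its control day 1 peak reached over the mature sequence of miR-219a-5p, a microRNA known for its abundance in differentiating oligodendrocytes, on the minus strand at chr17:34025052-34025072. The day 0 and Seh1cKO peaks ended 28 and 254 bp short of it, and all 3 summits lay 446 to 573 bp away, so these levels are not levels at the microRNA. Its sequence from RefSeq is shown, with the seed, bases 2 to 8, in capitals, to mark what the control day 1 peak alone reached.
mmu-miR-219a-5p: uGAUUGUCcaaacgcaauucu
Nearby, at H2-Ke6, the site at 34025873 held 45 and 39 fragments and had no Seh1cKO call, where the limit was 14 and an unchanged level would have given 23.2. At an annotated end of Col11a2 the site chr17:34038153-34039280 was at 0.523 times control day 1 in Seh1cKO cells (0.290 to 0.900).

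Side by side, the pair of Klf9 sites upstream and the pair of Hr sites at its lower end stood in Seh1cKO cells at 0.625 to 0.696 times control day 1, while the Thrb, Rxrg and Thra sites that stood highest in control day 1 were at 0.275, 0.257 and 0.455 times. The intervals of the first 4 begin at 0.383 to 0.443, and those of the last 3 end at 0.477, 0.436 and 0.686, so all overlap but those of the Rxrg site and the Klf9 site at 23134520. The second Thrb body site, at 0.655 times, lay with the first 4 in FPM. The Klf9 site at 23149849, at 0.543 times (0.238 to 1.14), lay between the first 4 and the last 3. The site at the lower end of Thra had no Seh1cKO call and so no ratio. Relative to the median of all sites the ratios of the first 4 were 0.689 to 0.766, against 0.302, 0.282 and 0.501 for the last 3. The Klf9 site at 23149849 was at 0.598. In fold enrichment the log2 ratios were -0.51 at Klf9 site 23135480, -0.69 at Klf9 site 23149849, and -0.24 and -0.21 at the Hr pair. Those of the Thrb, Rxrg and Thra sites were -1.24, -0.80 and -0.69. The second Thrb body site, at -0.70, lay with these 3 on this scale and not with the first 4. At Klf9 site 23134520 fold enrichment was 6.38 in control day 1 and 5.50 in Seh1cKO cells. These sites were set side by side after their values were seen, among them the control day 1 levels that each ratio divides by. The difference between the sites was not tested.

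The wider pathway was described for 27 further genes at their starts, known for 20, and at either annotated end of the others. A site was found there for 24, 23 and 23 at day 0, in control day 1 and in Seh1cKO cells, and for 23 in all 3. Of all genes with a known start, 62.4%, 63.1% and 58.6% had a start site. Of 6 transporters 6, 5 and 5 were called, and Slco1c1, a T4 transporter, was the only gene of the list whose call differed, with 12 fragments at day 0 alone. Slc7a5, the light chain of an amino acid transporter that also carries thyroid hormone, was the highest transporter in control day 1, with 49, 63 and 40 fragments. All 6 corepressor genes were called in every library, Tbl1xr1 highest in control day 1 with 59, 79 and 46 fragments. Of 7 coactivator genes 6 were called in every library and Ncoa6 in none. Ep300, a histone acetyltransferase, was the highest of them in control day 1, with 52, 56 and 37 fragments, just over Ncoa2 and Crebbp with 55 each. At day 0 it stood below Med1 with 60, Ncoa2 with 58 and Crebbp with 55. All 6 further T3-responsive genes were called in every library, with Dbp, a circadian transcription factor, highest in control day 1 at 118, 127 and 97. Neither Dio1, the type 1 deiodinase, nor Crym, a cytosolic T3-binding protein, had a start site. The summed level of the corepressor starts was 10.4, 14.0 and 14.4 FPM and that of the coactivator starts 12.9, 15.1 and 15.7.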

How the data were processed

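The submitters' processing notes name Bowtie2, SAMtools, MACS2 and build mm10. Per the file headers, MACS 2.1.2_dev called peaks in each library on paired-end fragments, keeping duplicates, with no control library, a q cutoff of 0.05 and a minimum length of 100 bp. No label or header says if read ends were moved to the transposase cut. The deposited tables hold the pileup signal at the summit, its fold enrichment as a ratio over local background, and −log10 p and q. Both −log10 column names were damaged and were identified by column order. Duplicates can raise a pileup, and no table used here measures them.

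The peaks of the 3 tables were merged into sites wherever they overlapped by at least 1 bp, and a site's level is its highest pileup per 1000000 header fragments (FPM). Gene positions and starts came from RefSeq GRCm38.p6, whose main chromosomes have mm10 coordinates. Strand was given for 7 of the 9 genes. For Thra and Hr, and for pathway and marker genes without a known start, both annotated ends were used. All 9 genes were named, with their start sites, their highest other sites and the sites of −log10 q of at least 10 that lacked a call elsewhere. Of the 27 pathway genes, those whose calls differed between libraries and the highest of each subgroup were named, and the genes most like Klf9 were those at the smallest Euclidean distance in log2 level. The genes and lists were chosen with earlier results of these data known. With 1 library per group there was no test. Shares have exact Clopper-Pearson and folds exact conditional binomial intervals, both at 95%. Merging and intervals were tested on simulated data. Alternatives changed the window, threshold, list length, overlap and scale. Python 3.11.15, pandas and scipy were used.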

Additional observations from a re-analysis of the deposited data

How the results depend on the processing

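With gene bodies alone the counts of sites at day 0, control day 1 and Seh1cKO fell to 44, 51 and 26. A −log10 q of at least 5 left 38 at day 0 and 53 in control day 1, of which 66.0% were also called at day 0. Lists cut to the 46113 strongest peaks each left 41 and 47 sites, with 76.6% of control day 1 sites called at day 0 and 78.7% in Seh1cKO cells. Scaling by sites called in all 3 libraries brought the median log2 folds to 0.03 for control day 1 over day 0 and 0.04 for Seh1cKO over control day 1, the latter a change of sign, and fold enrichment gave 0.19 for the first. Leaving out sites near ends of other genes, an alternative chosen after seeing the data like that without Thrb, left 27 Seh1cKO sites. A window of 10000 bp and an overlap of at least 0.5 of the shorter peak moved no count by over 1.5 times. Folds at 42 single sites were also recomputed. The threshold, list length and overlap alternatives used the same pileups at a site. Their 32, 36 and 41 values all equalled the reported folds and do not measure stability. Scaling by sites called in all 3 libraries left 40 values within the 95% counting interval of the reported fold, and 2 outside. That interval can be wide. Fold enrichment left 34 within it and 7 outside. The Klf9 start reversed in fold enrichment (log2 -0.17). In all 6 values changed sign, 5 of them where the reported difference was under 1.5-fold, as at the Rxrb start (log2 0.22, to -0.27 and -0.17). Fold enrichment values are given in the report for some of the sites described, and for others they are not. The cause of these shifts was not tested. No paired analysis was possible because each group has 1 library. Call limits are estimates from the nearest peak, and strand was not used for Thra and Hr, nor exons for any gene.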
